A study of Homo sapiens with 5 samples.

Results

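Glycolysis and the response to low oxygen were followed through 42 named genes, 16 of them glycolytic enzymes and 26 other genes of the hypoxia response. Each gene was represented by 1 probe set that carries only its symbol, the one with the highest mean over all arrays, and 40 of the 42 genes had such a probe set out of 19775 genes on the array. SLC16A3 and CA9, a lactate exporter and a carbonic anhydrase, are not analysed here. The arrays held RNA from PC-3, a cell line grown from a bone metastasis of a human prostate cancer that no longer needs androgen. The study set spheroids against flat culture (2D) and PC-3 cells with 1 of 2 short hairpin RNAs against TRIB1 (shTRIB1-1 and shTRIB1-2) against PC-3 cells with a control hairpin against GFP (shGFP), with 1 Affymetrix array for each of these 5 samples. The labels state no treatment and give the same dish culture protocol for every sample, the spheroid sample included. The 2 TRIB1 hairpin lines are the only samples of 1 group, and nothing in the labels tells of repeat cultures of either line. Any p-value therefore measures only the spread between these 2 arrays. As they carry different hairpins, that spread mixes any difference between the hairpins with other variation, which may be technical.

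Glycolysis turns glucose into pyruvate and yields ATP without oxygen. When oxygen is low, prolyl hydroxylases of the EGLN family no longer mark the alpha subunits of hypoxia-inducible factor (HIF), encoded by HIF1A and EPAS1, for destruction, and HIF then switches on glucose transport, most glycolytic enzymes, lactate production and a set of genes for blood vessel growth, pH control, collagen maturation and removal of mitochondria. Tumour cells often run glycolysis at a high rate even with oxygen. Because the glycolytic enzymes are also needed for growth, their messenger RNAs and those of the other HIF targets need not move together, and they are given separately here.

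HIF binds DNA at the core letters ACGTG or GCGTG. In the RefSeq windows of GRCh38.p14 that run from 250 bases before to 50 bases after each gene start, 37 of the 42 genes had 72 windows, several for some genes. Either motif, on either strand, was found in 22 of 36 windows of the glycolytic enzymes (61.1%) and 29 of 36 windows of the other hypoxia genes (80.6%), against 48.4% of all 35116 windows. For ACGTG alone the shares were 38.9% and 41.7%, against 21.4% of all windows, and for GCGTG alone 38.9% and 55.6%, against 36.5%. The genes were named as known hypoxia genes, and windows of 1 gene can overlap, so these shares describe the list and are no test. The windows below are printed because they belong to genes that differed in opposite directions in spheroids: PGK1 and LDHA are enzymes with lower signal, ENO2 an enzyme with higher signal, and P4HA1 and ADM other targets with higher signal. Capitals mark both motifs on either strand, and overlapping matches run together, as in CACGTG, which holds ACGTG on both strands. A match is a run of letters and not a measured binding site.
PGK1 (chrX:78103998-78104297, plus strand): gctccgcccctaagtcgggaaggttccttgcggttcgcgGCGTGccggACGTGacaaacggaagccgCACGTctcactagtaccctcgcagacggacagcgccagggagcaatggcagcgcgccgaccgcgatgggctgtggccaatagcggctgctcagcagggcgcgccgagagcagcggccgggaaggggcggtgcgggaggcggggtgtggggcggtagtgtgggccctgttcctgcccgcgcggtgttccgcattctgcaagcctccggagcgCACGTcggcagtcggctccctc
LDHA (chr11:18394313-18394612, plus strand): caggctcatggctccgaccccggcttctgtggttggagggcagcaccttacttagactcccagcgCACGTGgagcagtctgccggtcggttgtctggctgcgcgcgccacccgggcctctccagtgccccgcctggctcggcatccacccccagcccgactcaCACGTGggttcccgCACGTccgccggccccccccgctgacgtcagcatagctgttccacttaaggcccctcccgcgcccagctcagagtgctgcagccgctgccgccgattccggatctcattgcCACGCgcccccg
ENO2 (chr12:6914330-6914629, plus strand): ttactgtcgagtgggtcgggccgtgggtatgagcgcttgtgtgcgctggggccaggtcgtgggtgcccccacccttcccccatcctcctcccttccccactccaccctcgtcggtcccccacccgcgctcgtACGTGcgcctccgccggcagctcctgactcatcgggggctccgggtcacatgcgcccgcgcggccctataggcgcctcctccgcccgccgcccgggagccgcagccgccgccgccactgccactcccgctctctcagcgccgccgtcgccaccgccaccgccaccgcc
P4HA1 (chr10:73096817-73097116, minus strand): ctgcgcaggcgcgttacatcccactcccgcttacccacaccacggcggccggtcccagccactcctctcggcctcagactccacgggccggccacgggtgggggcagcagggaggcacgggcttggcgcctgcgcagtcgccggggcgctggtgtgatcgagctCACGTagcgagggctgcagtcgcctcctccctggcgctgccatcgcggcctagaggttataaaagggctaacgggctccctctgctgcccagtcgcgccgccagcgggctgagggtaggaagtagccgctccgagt
ADM (chr11:10304823-10305122, plus strand): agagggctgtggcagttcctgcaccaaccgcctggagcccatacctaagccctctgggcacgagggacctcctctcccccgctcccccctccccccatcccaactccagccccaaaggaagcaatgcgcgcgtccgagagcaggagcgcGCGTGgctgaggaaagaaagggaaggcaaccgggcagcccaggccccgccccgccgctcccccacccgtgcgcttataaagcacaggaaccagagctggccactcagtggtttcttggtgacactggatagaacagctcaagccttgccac
The PGK1 window held 4 matches and the LDHA window 6, while ENO2, P4HA1 and ADM held 1 each. LDHA has a second window with 1 match, not printed. The 5 were picked with the signal and the matches known, so they only illustrate.

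Values are log2 of the deposited intensity and are called levels. Genes were compared only where a level of 6 or more was reached on any of the arrays involved. Among the 40 measured genes, 38 lay at or above 6 on all 5 arrays, so none entered through a single high array. The exceptions were SLC2A3, a glucose transporter, and EGLN3, an oxygen-sensing prolyl hydroxylase, which lay between 3.92 and 4.19 on every array. Levels of different genes come from different probes and are not compared with each other. As a check of the cell type, the 6 epithelial and PC-3 markers KRT8, KRT18, KRT19, EPCAM, CD44 and VIM lay between 9.39 and 13.19 on all arrays. Of 5 blood markers only HBB reached 6, of 5 fibroblast markers none did, and of 5 endothelial markers only PECAM1 did, at 9.53 in spheroids and 7.57 in 2D. Of 4 measured prostate luminal markers, KLK2 and FOLH1 lay below 6 on every array. KLK3 carried exactly the same value, 6.90, on every array, so it was not read as expression. TMPRSS2 reached 6 only on the 3 hairpin arrays, at 6.07 with shTRIB1-1, 7.09 with shTRIB1-2 and 6.09 with shGFP. The signal of TRIB1 itself was 11.91 and 11.76 with shTRIB1-1 and shTRIB1-2 and 11.97 with shGFP, a mean difference of -0.13 ± 0.10 (SD, n = 2), so depletion was not seen at this probe set and the hairpin arrays are named by their labels. The ratio of 5′ to 3′ actin control signal was 0.131 on the spheroid array and 0.184 on the 2D array, against 0.436 to 0.445 on the 3 hairpin arrays.

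**Figure D1:**
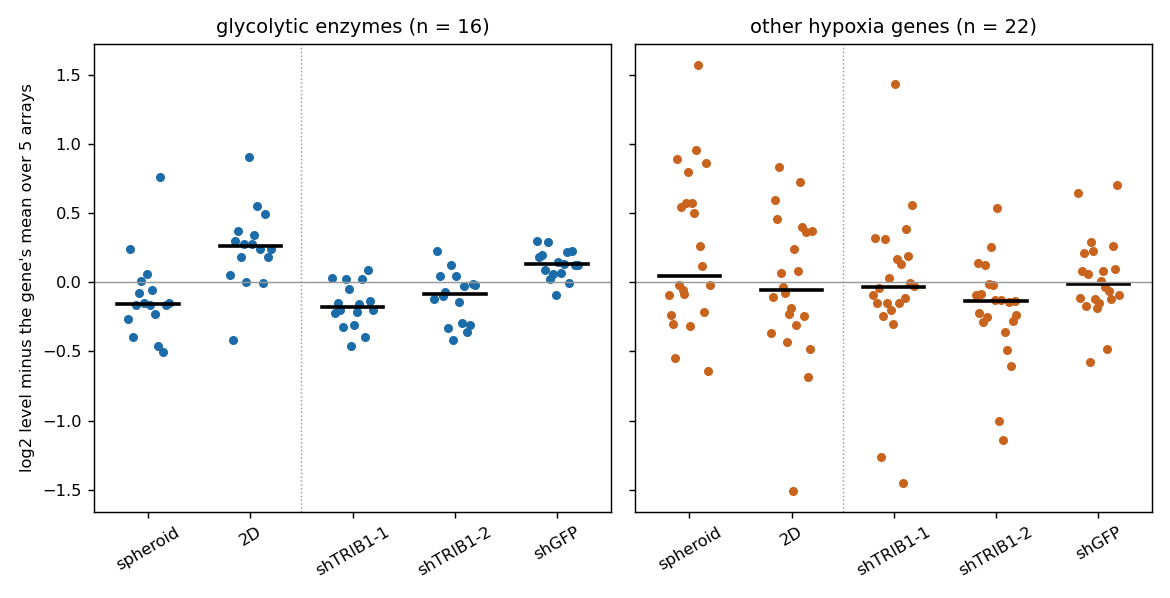
Level of each gene minus its own mean over the 5 arrays (log2 units), for 16 glycolytic enzymes and 22 other hypoxia genes. Points are genes, black bars are medians over genes, and the dotted line parts arrays without hairpins from those with hairpins. The enzymes' median is 0.26 on the 2D array and 0.13 on the shGFP array, and between -0.18 and -0.083 on the other 3 arrays.

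Spheroid cells had lower signal than 2D cells for most glycolytic enzymes. They had higher signal for VEGFA, ADM, LOX, P4HA1 and P4HA2, the secreted and collagen-modifying genes among the named hypoxia targets. Of 16 enzymes, 14 were lower in spheroids and 2 were higher, with a median difference of -0.39. Of 22 other hypoxia genes, 14 were higher and 8 lower, with a median of 0.30. Among all 10570 genes in this comparison 50.9% were lower and 47.3% higher, and the median was -0.0083. At 2-fold no enzyme was called in either direction, and among the other genes 2 were higher (NDRG1 and ADM) and 1 was lower (PDK1), against a background of 5.05% of all genes higher and 5.23% lower. Each condition had 1 array, so these differences have no replicate check and no test. Bulk RNA cannot tell fewer cells of a kind from less RNA per cell.

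At the top of the pathway the 2 hexokinases, which trap glucose as glucose 6-phosphate, differed in opposite directions. HK1 was at 10.32 in spheroids and 10.63 in 2D, a difference of -0.32. HK2, the inducible form and a HIF target, was at 10.40 in spheroids and 9.75 in 2D, a difference of 0.66. Of the other HK2 probe sets 1 reached a level of 6, at 5.92 in spheroids and 6.52 in 2D (-0.60), so the direction for HK2 depends on the probe set. Against shGFP the difference of HK2 was 0.058. GPI, which interconverts glucose and fructose phosphates, was at 9.21 in spheroids and 9.90 in 2D (-0.69).

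The phosphofructokinases catalyse the committed step, and all 3 were lower in spheroids. The liver-type PFKL was at 6.92 in spheroids and 7.46 in 2D (-0.53), while the muscle-type PFKM and the platelet-type PFKP differed by -0.27 and -0.26. Of the aldolases, which split the 6-carbon sugar, ALDOA was nearly level at 11.98 in spheroids and 12.14 in 2D (-0.16), whereas ALDOC was at 7.99 in spheroids and 8.84 in 2D (-0.85), though it was above shGFP (0.15). TPI1, which interconverts both products of the split, was at 12.14 in spheroids and 12.58 in 2D (-0.44).

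The later steps of the pathway were lower in spheroids apart from ENO2. PGK1, the first enzyme that returns ATP, was at 13.02 in spheroids and 13.41 in 2D (-0.40). It had 6 probe sets, of which 5 were lower in spheroids and 1 differed by 0.083, and the lowest, at 10.35 in spheroids and 11.70 in 2D, differed by -1.35. PGAM1, the phosphoglycerate mutase, was at 12.14 in spheroids and 12.92 in 2D (-0.78).

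The enolases, which make phosphoenolpyruvate, differed in opposite directions. ENO1, the form found in most tissues, was at 12.03 in spheroids and 12.74 in 2D (-0.71), and 3 of 3 probe sets above a level of 6 were lower. ENO2, the form known from neurons and also a HIF target, was at 8.26 in spheroids and 7.49 in 2D (0.77). The spread between the hairpin arrays, the only pair within a group, was 0.035 for ENO1 and 0.026 for ENO2 as an SD. That is smaller than either difference, but it comes from other samples. It was not smaller for every gene. The same SD was 0.90 for P4HA2 and 0.83 for LOX, above their spheroid differences of 0.88 and 0.33. PKM, the pyruvate kinase, had the largest enzyme difference, at 7.73 in spheroids and 8.73 in 2D (-0.997, just short of 2-fold), but its other probe set differed by -0.12. LDHA and LDHB, the lactate dehydrogenase subunits, were at 13.34 and 12.91 in spheroids and 13.69 and 13.29 in 2D, differences of -0.35 and -0.39. Counted by probe set, 28 of 31 enzyme probe sets above a level of 6 were lower in spheroids and 3 were higher. Probe sets of 1 gene are repeat readings, so this adds little to the count by gene. No share over all probe sets was taken.

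SLC2A1, the main glucose transporter GLUT1, was at 7.78 in spheroids and 7.51 in 2D (0.28), near the median of the other hypoxia genes, but it lay below shGFP (-0.74). PFKFB3 and PFKFB4 make and remove fructose 2,6-bisphosphate, an activator of phosphofructokinase. PFKFB3 was nearly level (-0.13), and PFKFB4 was at 7.60 in spheroids and 8.50 in 2D (-0.90). PDK1, a kinase that keeps pyruvate out of the mitochondrial citrate cycle by blocking pyruvate dehydrogenase and a well-known HIF target, was at 8.06 in spheroids and 9.07 in 2D, 2.01-fold lower (-1.01). A second PDK1 probe set differed by -1.41. The 2-fold call at the first ended against the mean of 2D and shGFP (-0.88), against shGFP (-0.76), with a pseudocount of 16 (-0.97) and with each array centred on its median (-0.98). PDK3, a related kinase, differed by 0.063, and its 4 probe sets above a level of 6 ran from -0.70 to 0.47.

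Of the HIF subunits, HIF1A was alike on both arrays, at 13.06 in spheroids and 13.15 in 2D (-0.088). EPAS1, which encodes HIF-2 alpha, was at 11.41 in spheroids and 10.83 in 2D (0.58). HIF is set mainly at the protein level, which arrays do not read. EGLN1, the main oxygen sensor, differed by 0.022. The nuclear targets KDM3A, a histone demethylase, and MXI1, an antagonist of MYC, differed by 0.35 and 0.80 (KDM3A by -0.31 against shGFP), with MXI1 at 10.41 in spheroids and 9.60 in 2D.

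Among the named genes, secreted factors and collagen-modifying enzymes were higher in spheroids in 5 of 5 cases, with a median of 0.88. Of all genes compared, 47.3% were higher. The genes and lists were chosen with earlier results of these data known, so the count describes these genes and is no test. Collagen-modifying enzymes outside these 5 genes were not all higher in spheroids. PLOD1 and PLOD2, collagen lysyl hydroxylases among the further hypoxia response genes read below, were lower in spheroids than in 2D (-0.73 and -0.55). VEGFA, the main growth factor for blood vessels, was at 10.88 in spheroids and 9.90 in 2D (0.98), and all 4 of its probe sets were higher by 0.91 to 1.74. ADM, which encodes the vessel-relaxing peptide adrenomedullin, was at 9.34 in spheroids and 8.15 in 2D, 2.29-fold higher (1.19). On the shGFP array ADM was at 9.50, above the spheroid array, so this difference turned to -0.17 with shGFP as the comparison and was 0.51 against the mean of both controls. P4HA1 and P4HA2, the catalytic subunits of the collagen prolyl hydroxylase, were at 12.10 and 9.70 in spheroids and 11.30 and 8.82 in 2D, differences of 0.81 and 0.88. LOX, which crosslinks collagen, differed by 0.33, and by 1.22 at its second probe set.

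NDRG1, a differentiation and stress gene strongly induced by hypoxia, had the largest difference of the 38 genes from 2D, at 12.05 in spheroids and 10.50 in 2D, 2.93-fold higher (1.55). Against shGFP it differed by 0.77, below 2-fold, and CA12 had the largest difference (2.06). CA12, a membrane carbonic anhydrase that helps to control pH, was at 9.68 in spheroids and 8.84 in 2D (0.85), and 5 of 5 probe sets above a level of 6 were higher. Genes of mitochondria were mixed. BNIP3 and BNIP3L, receptors that lead mitochondria to autophagy, differed by -0.14 and 0.36, and AK4, a mitochondrial adenylate kinase, was at 10.43 in spheroids and 11.02 in 2D (-0.58). The small HIF targets ANKRD37 and HILPDA, which encodes a lipid droplet protein, differed by -0.16 and -0.39. Against shGFP they differed by -1.35, past 2-fold, and 0.069.

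**Figure D2:**
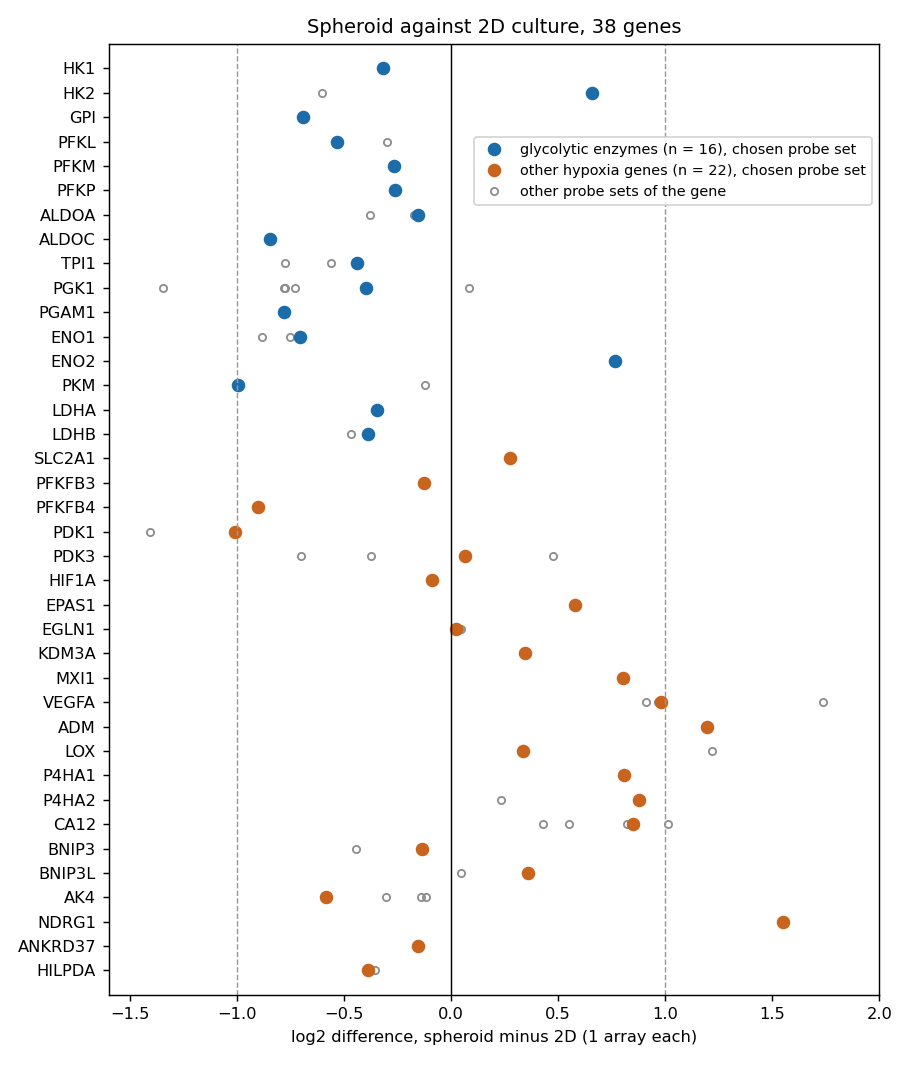
Log2 difference between the spheroid and the 2D array for 38 genes, 1 array each. Filled points are the probe set chosen for each gene, open points are its other probe sets above a level of 6 on either array, and dashed lines mark 2-fold. Of the 16 enzymes 14 lie left of 0, while the 5 secreted and collagen genes (VEGFA, ADM, LOX, P4HA1 and P4HA2) lie right of it.

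Further genes of the same pathways, from lists that hold none of the 42 genes, were read in the same way. Of 20 further glycolysis and pyruvate genes above a level of 6, 10 were higher and 10 lower in spheroids, with a median of -0.028. GAPDH, the glycolytic enzyme often used as a loading control, was at 13.01 in spheroids and 13.65 in 2D (-0.64), and its 3 Affymetrix control probe sets differed by -0.76, -0.77 and -0.53 from the 5′ end to the 3′ end. The 3 genes past 2-fold against 2D act where pyruvate enters mitochondria and were higher. PDK4, a pyruvate dehydrogenase kinase, was at 9.19 in spheroids and 5.79 in 2D (3.40), below 6 in 2D and so near background there. PDP1, the opposing phosphatase, was at 10.52 in spheroids and 8.96 in 2D (1.56), and MPC1, a subunit of the mitochondrial pyruvate carrier, was at 10.19 in spheroids and 8.85 in 2D (1.34). Against shGFP PDP1 and MPC1 were below 2-fold, at 0.60 and 0.65. MPC1 was also below 2-fold as the median over probe sets (0.83) and against the mean of 2D and shGFP (0.997). The median of the 3 PDK4 probe sets lay below 6 on both arrays, so its difference rests on the chosen probe set.

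Of 23 further hypoxia response genes, 16 were higher and 7 lower in spheroids, with a median of 0.22, and 4 were past 2-fold upward. These were ANGPTL4, a secreted inhibitor of lipoprotein lipase, at 8.97 in spheroids and 6.25 in 2D (2.72), CITED2, a HIF target that competes with HIF for its coactivators (1.48), DDIT4, an inhibitor of mTORC1 (1.17), and IGFBP3, a binding protein for insulin-like growth factors (1.11). The calls for CITED2 and DDIT4 ended against shGFP (0.54 and 0.59), that for DDIT4 also against the mean of both controls (0.88), and those for CITED2 and IGFBP3 as the median over probe sets (0.97 and 0.92). INHBA, which encodes the activin A subunit, was lower by 2-fold or more (-1.46). Among 8 regulators of HIF, 4 were higher and 4 lower, and ARNT2, a HIF partner, was at 6.61 in spheroids and 4.76 in 2D (1.84, near background in 2D). Other lists differed between the same arrays. The 20 genes of G2 and M phase were all at least 2-fold lower in spheroids, with a median of -2.94, and the 6 epithelial and PC-3 markers were all lower, with a median of -0.47, close in size to that of the enzymes. The part of these lists and of the actin ratio in the enzyme difference was not tested.

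The arrays labelled shTRIB1-1 and shTRIB1-2 were next set against shGFP. Since TRIB1 signal was not depleted on them, this compares the labelled arrays and cannot show dependence on TRIB1. The glycolytic enzymes had slightly lower signal with either TRIB1 hairpin for 13 of 16 members, and for 0 members was the signal higher with both. Their median was -0.29 with shTRIB1-1 and -0.23 with shTRIB1-2, so a typical enzyme was lower by under 1.5-fold. Of the 22 other hypoxia genes, 10 were lower with both hairpins and 3 were higher with both. Among all 10522 genes tested, 34.7% were lower on both labelled arrays and 25.0% higher on both, with medians of -0.027 and -0.0095 for the 2 hairpins. None of the 38 genes differed 2-fold on both arrays in 1 direction, against 0.0855% of all genes lower and 0.361% higher. Limma with Benjamini-Hochberg adjustment called 0 of 10522 genes, at a smallest adjusted p of 0.951, and 356 genes (3.38%) had an unadjusted p under 0.05, among them 1 of these 38. Both differences share the lone shGFP array, whose own spread cannot be seen, and a shift in it would move both hairpins alike.

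The enzyme differences were small but close between hairpins for several steps. ENO2 was at 7.10 and 7.14 with the TRIB1 hairpins and 7.49 with shGFP, a mean difference of -0.37 ± 0.03 (SD, n = 2). ALDOC was at 7.47 and 7.52 with the TRIB1 hairpins and 7.84 with shGFP (-0.34 ± 0.03). PGK1 was at 12.86 and 12.93 with the TRIB1 hairpins and 13.14 with shGFP (-0.25 ± 0.05), and 6 of 6 probe sets were lower on both arrays. In these 3 genes both hairpin arrays lay below shGFP and close together.

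PGAM1 was at 12.21 and 12.08 with the TRIB1 hairpins and 12.50 with shGFP (-0.36 ± 0.10), and ENO1 was at 12.52 and 12.47 with the TRIB1 hairpins and 12.72 with shGFP (-0.22 ± 0.035). PFKM had the largest mean difference of the enzymes, at 9.63 and 9.89 with the TRIB1 hairpins and 10.25 with shGFP (-0.49 ± 0.18). HK1, GPI, PFKL, TPI1, PKM, LDHA and LDHB were also lower on both, by means of 0.20 to 0.35 on the log2 scale. HK2 was at 9.94 and 10.39 with the TRIB1 hairpins and 10.35 with shGFP, so the hairpins lay on either side of the control. ALDOA also straddled the control, and PFKP had the same value as shGFP on the shTRIB1-1 array. By probe set, 23 of 29 enzyme probe sets above a level of 6 were lower on both labelled arrays and 0 were higher on both. As several are repeat readings of 1 gene, this adds little to the count by gene. The SD between the hairpins is not the error of a difference from the single shGFP array. The control arrays were not alike: 5 of the 38 genes differed at least 2-fold between shGFP and 2D, against 4.25% of all genes. For 12 of the 16 enzymes shGFP was below 2D, counting ENO2, which was equal at the precision printed, and the enzymes' median difference of the hairpins was -0.38 with 2D as the comparison.

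**Figure D3:**
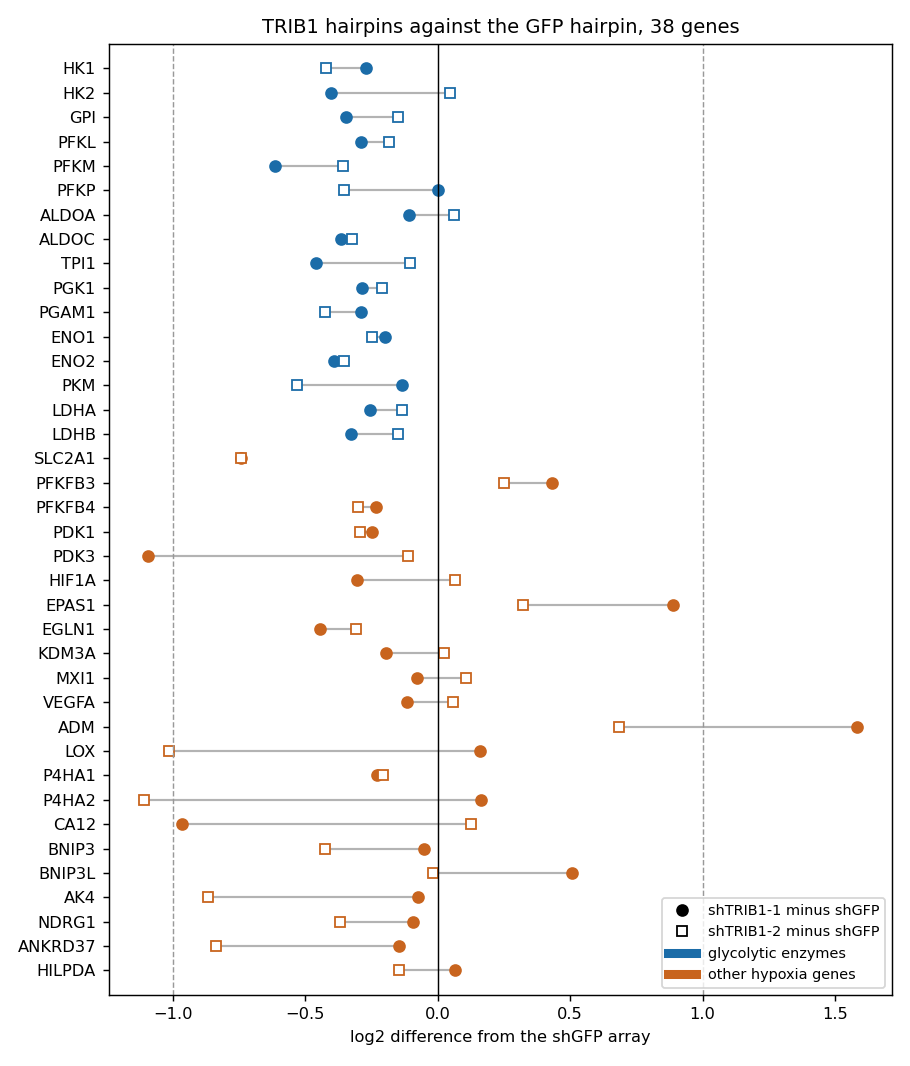
Log2 difference from the shGFP array for 38 genes, with shTRIB1-1 as filled circles and shTRIB1-2 as open squares joined by a line, and dashed lines at 2-fold. For 13 of 16 enzymes both symbols lie left of 0, whereas PDK3, CA12, LOX and P4HA2 show long lines, that is, hairpins that differ from each other.

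SLC2A1 had the lowest mean of the 38 genes, at 7.78 and 7.78 with the TRIB1 hairpins and 8.53 with shGFP, a difference of -0.74 with each hairpin. It was the 1 gene of the 38 with an unadjusted limma p under 0.05 (0.0162, adjusted p = 0.951). Its level was 7.51 on the 2D array, so with 2D as the comparison the same hairpins were higher by 0.28. The 2 hairpin arrays and the spheroid array carried exactly the same value for this probe set, so its SD of 0 is no measure of precision. PFKFB3 was higher with both TRIB1 hairpins, at 7.92 and 7.74, against 7.49 with shGFP (0.34 ± 0.13). PFKFB4 and PDK1 were lower on both (-0.27 ± 0.05 and -0.27 ± 0.03).

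ADM had the largest mean difference of the 38 genes. It was at 11.09 with shTRIB1-1, 10.19 with shTRIB1-2 and 9.50 with shGFP, a mean difference of 1.13 ± 0.64 (SD, n = 2). Both labelled arrays lay above shGFP, and above 8.15 in 2D as well, but limma did not call it (adjusted p = 0.951). EPAS1 was at 11.18 with shTRIB1-1, 10.62 with shTRIB1-2 and 10.29 with shGFP (0.60 ± 0.40), although the 2D array, at 10.83, lay between the hairpins. HIF1A was level within the hairpins' spread (-0.12 ± 0.26), as were VEGFA (-0.03 ± 0.13) and MXI1 (0.01 ± 0.13). EGLN1, at 9.25 and 9.39 with the TRIB1 hairpins and 9.70 with shGFP, was lower on both (-0.38 ± 0.09), yet 2D was at 9.32.

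Several genes differed between the hairpins. LOX was at 8.49 with shTRIB1-1, 7.32 with shTRIB1-2 and 8.33 with shGFP, and P4HA2 was at 8.87 with shTRIB1-1, 7.60 with shTRIB1-2 and 8.70 with shGFP. At these probe sets both collagen genes were lower by 2-fold or more with shTRIB1-2 and slightly higher with shTRIB1-1. A second LOX probe set differed alike (0.19 and -1.28), but a second P4HA2 probe set differed by 1.11 with shTRIB1-1 and -0.59 with shTRIB1-2. P4HA1 did not share this pattern, at 11.45 and 11.47 with the TRIB1 hairpins and 11.68 with shGFP. AK4 was at 10.84 with shTRIB1-1, 10.05 with shTRIB1-2 and 10.91 with shGFP, and all 4 probe sets were lowest with shTRIB1-2, by -0.87 to -1.41. With shTRIB1-1 the AK4 probe sets differed by 0.00 to -0.57, the 2 lowest of them by -0.50 and -0.57. Of the 4 probe sets, 3 were below shGFP with both hairpins.

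The opposite hairpin was the low one for 2 other genes. CA12 was at 6.66 with shTRIB1-1, 7.75 with shTRIB1-2 and 7.63 with shGFP, and PDK3 was at 6.95 with shTRIB1-1, 7.93 with shTRIB1-2 and 8.04 with shGFP. PDK3 was below shGFP with both hairpins at 4 of 4 probe sets above a level of 6. Another of them differed by -1.56 with shTRIB1-1 and -0.10 with shTRIB1-2. The rest differed by -0.54 and -0.63 and by -0.04 and -0.44, so the lower hairpin depended on the probe set. ANKRD37 was again lowest with shTRIB1-2, as it was at 8.54 with shTRIB1-1, 7.84 with shTRIB1-2 and 8.68 with shGFP. The remaining genes, NDRG1, BNIP3, BNIP3L, KDM3A and HILPDA, had mean differences between -0.24 and 0.24. With 1 array per hairpin, a hairpin's own effect and the variation between arrays cannot be told apart.

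Of the further pathway genes, none differed 2-fold on both labelled arrays in 1 direction. PDK4 did so in opposite directions, by -1.05 with shTRIB1-1 and 2.01 with shTRIB1-2. Its level was 5.64 with shTRIB1-1, 8.71 with shTRIB1-2 and 6.69 with shGFP. Of 21 further glycolysis and pyruvate genes, 5 were lower and 2 higher on both, GAPDH among the lower at -0.165 and -0.0093. Of 23 further hypoxia response genes, 7 were lower and 9 higher on both. Among these, and chosen after their values were seen, IGFBP3 differed by 3.00 with shTRIB1-1 and 0.65 with shTRIB1-2, and HMOX1, which encodes a heme-degrading enzyme, by 2.67 and 0.48, larger means than that of ADM. Limma called neither (adjusted p = 0.958 for each). Beside the enzymes, 19 of 19 genes of G2 and M phase were lower on both labelled arrays, with medians of -0.44 and -0.63. The part of this in the enzyme difference was not tested.

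The spheroid and hairpin comparisons use separate controls, and 12 of 16 enzymes were lower in both, which is 12 of the 14 enzymes lower in spheroids and 12 of the 13 lower on both hairpin arrays. Of the 22 other hypoxia genes 5 were lower in both, and among all 10249 genes in both comparisons 22.8% were. With 14 and 13 of 16 enzymes lower in the separate comparisons, most must be lower in both, so the overlap adds little to those counts. ENO2 was higher in spheroids and lower with both hairpins. ADM and EPAS1 were higher in both comparisons, and the other 5 hypoxia genes lower with both hairpins, P4HA1, NDRG1, SLC2A1, PDK3 and EGLN1, were higher in spheroids, the last pair by only 0.063 and 0.022.

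**Figure D4:**
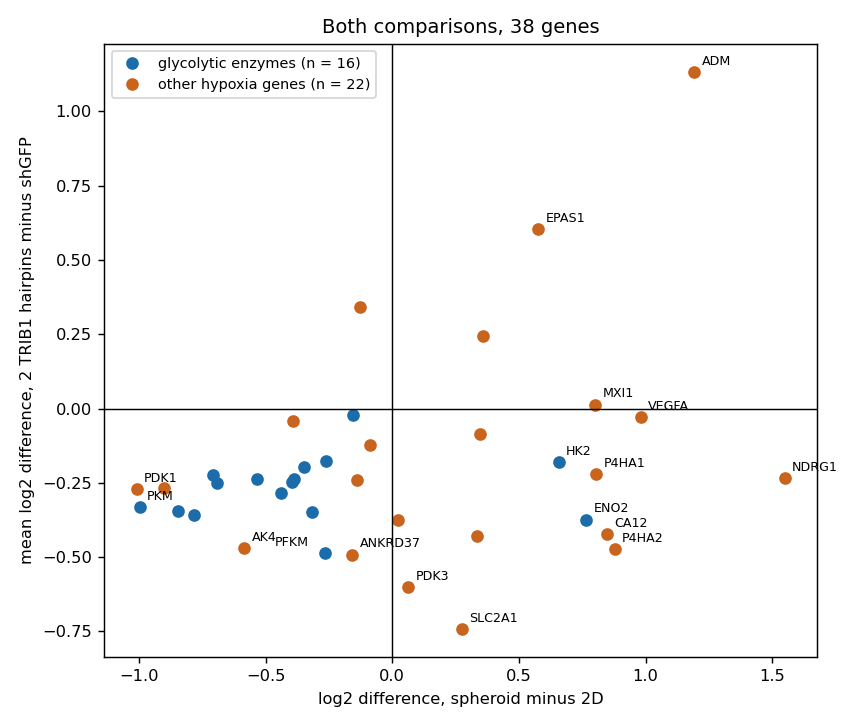
Log2 difference between spheroid and 2D (horizontal) against the mean log2 difference between the 2 TRIB1 hairpins and shGFP (vertical), for 16 enzymes and 22 other hypoxia genes. All 16 enzymes lie below 0 on the vertical axis as means and 14 of them lie left of 0, while ADM, at 1.19 and 1.13, lies farthest to the upper right.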

How the data were processed

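RNA from 5 PC-3 samples was hybridised to Affymetrix arrays. The deposited values are probe set intensities that the authors made with RMA, per the submitters' processing notes. Their linear scale was read from the values, and no RMA version was stated. RMA scales the arrays to a common distribution, so a shift shared by most genes would not show. Arrays have no depth, and their number limits the precision.

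Log2 was taken without a pseudocount. Of 54675 probe sets, 41097 carried 1 symbol in the platform annotation and 1801 several. RefSeq identifiers matched 41043 and updated 0 symbols. A gene was its probe set with the highest mean, and it was compared at a level of at least 6 on any compared array. Limma 3.58.1 (R 4.3.3) with an intensity trend tested both shTRIB1 arrays against shGFP over all genes. It had 1 residual degree of freedom, with Benjamini-Hochberg adjustment at 0.05. The code was also run on simulated data with planted changes far larger than the enzyme differences, so that run does not show power for such differences. Genes outside the 42 were named if at least 2-fold different (spheroid, or both hairpins). The members and lists were chosen with earlier results of these data known. Alternatives are in the closing section.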

Additional observations from a re-analysis of the deposited data

How the results depend on the processing

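The directions of the list medians held under every alternative that was run, and their sizes moved. The spheroid median of the enzymes (-0.39) was -0.49 with all probe sets of a gene reduced to their median, -0.55 without _s_at and _x_at probe sets, -0.34 against the mean of 2D and shGFP and -0.28 against shGFP. The spheroid median of the other hypoxia genes (0.30) was 0.15, 0.022, 0.19 and 0.15 under these settings, and 0.25 with no level filter. Without _s_at and _x_at probe sets, which leaves 8 enzymes, 6 enzymes were lower in spheroids, 5 were lower on both hairpin arrays, and 8 other hypoxia genes were higher in spheroids. The hairpin median of the enzymes (-0.25) was -0.33 without those probe sets, -0.33 against the mean of shGFP and 2D and -0.38 against 2D, and ran from -0.29 to -0.23 with 1 hairpin left out. That of the other hypoxia genes (-0.24) was -0.13 as the median over probe sets, -0.16 against the mean of shGFP and 2D and -0.019 against 2D, and ran from -0.18 to -0.11 with 1 hairpin left out. Of the 38 genes, 7 changed direction in spheroids against shGFP, namely ADM (-0.17), ALDOC (0.15), SLC2A1 (-0.74), EGLN1 (-0.35), KDM3A (-0.31), BNIP3 (0.32) and HILPDA (0.069). No 2-fold call among the members (NDRG1, ADM, PDK1) held against shGFP, and that of NDRG1 alone held against the mean of both controls. Other members passed 2-fold only with shGFP in place of 2D or with the mean of both. Against shGFP these were CA12 (2.06), EPAS1 (1.12), PDK3 (1.07) and ANKRD37 (-1.35). Over all genes, 2664 in place of 1087 differed in spheroids at 1.5-fold. On both hairpin arrays 287 in place of 47 did at 1.5-fold, 29 at a level filter of 8, 24 as the median over probe sets, 29 with a pseudocount of 16, 114 against the mean of shGFP and 2D and 474 against 2D, and 223 to 396 did on 1 hairpin array alone. Limma called 0 genes under each of its 10 alternatives, with a smallest adjusted p between 0.401 and 0.997, and with 1 hairpin left out it has no residual degrees of freedom. The cause of these shifts was not tested. The lone shGFP array for spheroids and the lone 2D array for hairpins were chosen as references after seeing the data. No paired analysis was possible because each control group holds 1 array.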

Other observations

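Between the control arrays shGFP and 2D, 5 of the 38 genes differed at least 2-fold. ADM was higher on the shGFP array than in 2D by 1.36, ANKRD37 by 1.19 and SLC2A1 by 1.02, while CA12 and PDK3 differed by -1.21 and -1.01. ALDOC differed by -0.998, just short of 2-fold. No other enzyme differed by more than 0.60 in size, the value for HK2. This comparison also crosses the arrays with and without hairpins, whose actin control ratios were 0.436 and 0.184.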
